A study of Mus musculus with 9 samples.

Results

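The 40 genes described here encode the proteins that license replication origins, unwind DNA, synthesise both strands and supply deoxynucleotides. The rule took them by gene name and used no measured value: they are the rows of both deposited comparison tables whose gene symbol matched the list, and all 40 of 40 were found among the 57010 genes of each table. The list of names was, however, drawn up with earlier results of these data known. RNA had been sequenced from 9 mouse organoid libraries in 3 groups of 3: normal lung organoids (Normal), organoids of small cell lung cancer (SCLC), and SCLC organoids given GSK (GSK). Organoids are cultures in which cells grow into small tissue-like bodies, and small cell lung cancer is a fast-growing neuroendocrine tumour of the lung. Strain, genotype, age, tumour of origin and culture conditions, and the identity, dose and duration of GSK, are not stated by the labels used here. Whether the 3 libraries of a group came from separate cultures or animals is not stated either, so every p-value measures the spread between these libraries, which may be technical.

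Before a cell copies its genome, the origin recognition complex, Cdc6 and Cdt1 load rings of the Mcm2 to Mcm7 helicase onto DNA, and geminin (Gmnn) blocks Cdt1 afterwards so that each origin is used once per cycle. The kinase Cdc7 with its activator Dbf4, together with Cdc45, the GINS complex and Mcm10, then turns the loaded ring into a moving helicase. Primase and polymerase alpha start each strand, polymerases epsilon and delta extend it on the sliding clamp Pcna, Fen1 and Lig1 join the lagging-strand pieces, and Rrm1, Rrm2 and Tyms make the precursors. Many of these genes are known targets of E2F transcription factors, and small cell lung cancer is known for loss of RB1, which restrains E2F.

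The data were a pair of tables, SCLC against Normal and GSK against control, that give for each gene a mean normalized count over 6 libraries, a log2 fold change with its standard error (SE, shown as ±) and an adjusted p-value; no value of a single library was among the data analysed here. Group levels below are the mean normalized counts implied by each mean and fold change, so they have no SD, and the 2 tables were scaled separately. The control was taken as SCLC because its implied levels matched those of SCLC across 13634 genes with an SD of 0.00837 on the log2 scale. Implied normalized counts summed to 44706821 in Normal and 42007045 in SCLC, and to 45333553 in SCLC and 31919648 in GSK. Among genes with a mean of at least 100, the median log2 fold change was 0.18 in SCLC against Normal and -0.25 in GSK against SCLC, so this shift is given beside the medians of the replication genes.

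Cell type markers were read first, since they moved with the groups. All 5 neuroendocrine markers were higher in SCLC than in Normal, where Insm1 lay under a mean of 1, and their summed level went from 73.4 to 104812. All 5 alveolar type II, 3 club, 4 pan-epithelial, 5 fibroblast and 5 macrophage and leukocyte markers, and 3 of 4 endothelial markers, were lower in SCLC. In GSK against SCLC, 5 of 5 fibroblast, 5 of 5 macrophage and leukocyte and 4 of 4 endothelial markers were higher. Alveolar type II markers were higher in 4 of 5 cases (Sftpc from 232 to 1858) and club markers in 2 of 3 (Scgb1a1 from 2.37 to 5428), while none of 4 pan-epithelial markers passed. The summed level of the first 3 lists went from 25.6 to 13885 for fibroblasts, from 59.1 to 22824 for leukocytes and from 43.2 to 12027 for endothelium. The alveolar type II sum went only from 4867 to 6115, since Abca3, which did not pass, stood at 4511 in SCLC and 2875 in GSK. Of the defining markers, the pan-leukocyte gene Ptprc stood at 0.09 in SCLC and 12562 in GSK, and Cdh5, of endothelial junctions, at 0.93 and 5311. The neuroendocrine sum went from 113126 to 51788, with 3 of 5 markers lower, 1 higher (Calca, log2 fold change 1.15) and Chga at 0.06 ± 0.33 from the authors' deposited table. Libraries labelled as treated SCLC organoids therefore carried abundant transcripts of stromal and immune markers. Some airway and alveolar markers were also higher in them than in SCLC, and the part of all this in the results below was not tested. In bulk RNA, fewer cells of a type and less RNA per cell cannot be told apart.

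**Figure D1:**
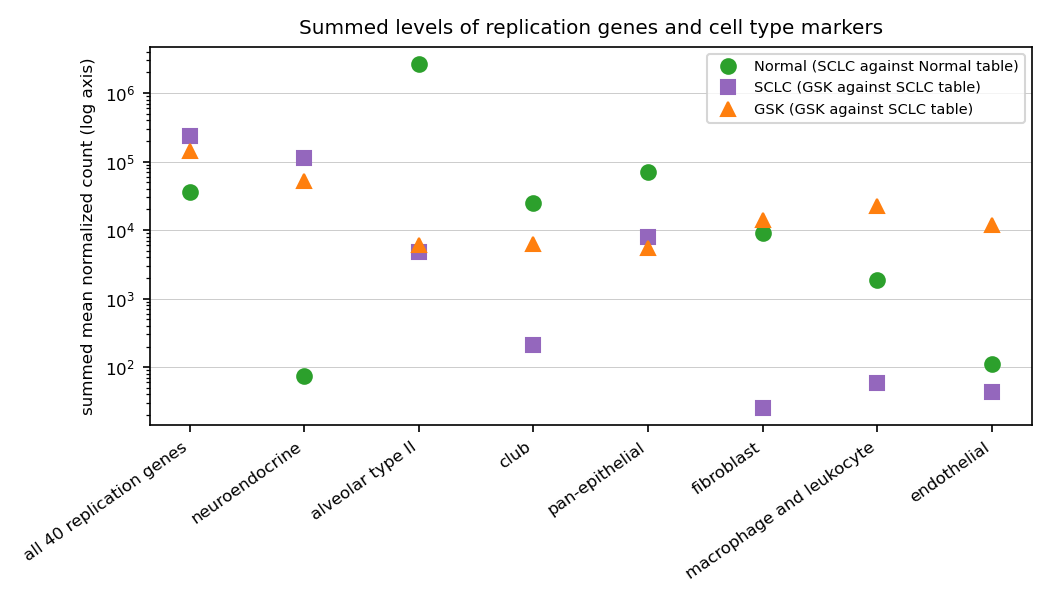
Summed mean normalized count (log axis) of the 40 replication genes and of each marker list in Normal (circles), SCLC (squares) and GSK (triangles); Normal comes from a separately scaled table. The replication genes went from 36533 in Normal to 235321 in SCLC and 142763 in GSK, while leukocyte, endothelial and fibroblast sums in GSK were between 12027 and 22824.

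Replication genes were higher in SCLC than in Normal almost without exception: 38 of 40 rose at an adjusted p under 0.05, none fell, and the other 2, Dbf4 and Rfc1, did not pass. At the median they stood at a log2 fold change of 2.63, 2.45 above abundant genes, against a median of 0.10 over all genes tested. In that comparison 25.3% of the 24719 genes tested were called higher and 25.1% lower, and among genes with a mean of at least 50, which all 40 had, 36.3% were called higher. The increase exceeded 4-fold for 30 genes and 8-fold for 7 (Mcm2, Cdt1, Gins1, Mcm10, Pold2, Pcna and Lig1). Summed over the 40, the level went from 36533 to 217737, a ratio of 5.96, and their share of all normalized counts went from 0.0817% to 0.518%. The same samples differed in cell type markers as given above, and the part of this was not tested.

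With GSK, 16 of the 40 fell relative to SCLC, none rose and 24 did not pass. At the median the 40 stood at a log2 fold change of -0.61, which is -0.36 when that of abundant genes is subtracted, against 0.24 over all genes tested. Of the 28376 genes tested, 15.5% were called lower and 21.6% higher, and among genes with a mean of at least 50, 27.5% were called lower. The summed level of the 40 went from 235321 to 142763, a ratio of 0.607, but their share of all counts went from 0.519% to 0.447%. When the 2 groups were scaled to equal totals, which adds 0.51 to every log2 fold change, 7 genes stayed lower (Mcm5, Cdt1, Gins2, Gins3, Mcm10, Pold1 and Lig1), Cdc7 became higher, and the background called lower was 6.94%. The 16 that fell had a median of -1.32, and 12 of them had an estimate below -1. In a test against an absolute log2 fold change of 1, however, only 2 of the 40 genes passed. The 24 that did not pass had a median of -0.36, with 95% intervals that reached from -1.70 to 0.97. These intervals are not adjusted for the number of genes, and 2 of them, those of Pola2 and Rfc5, excluded 0. For 12 of these 24 the interval included a fall of 1 log2 unit, so such a change was not excluded for them at this precision.

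**Figure D2:**
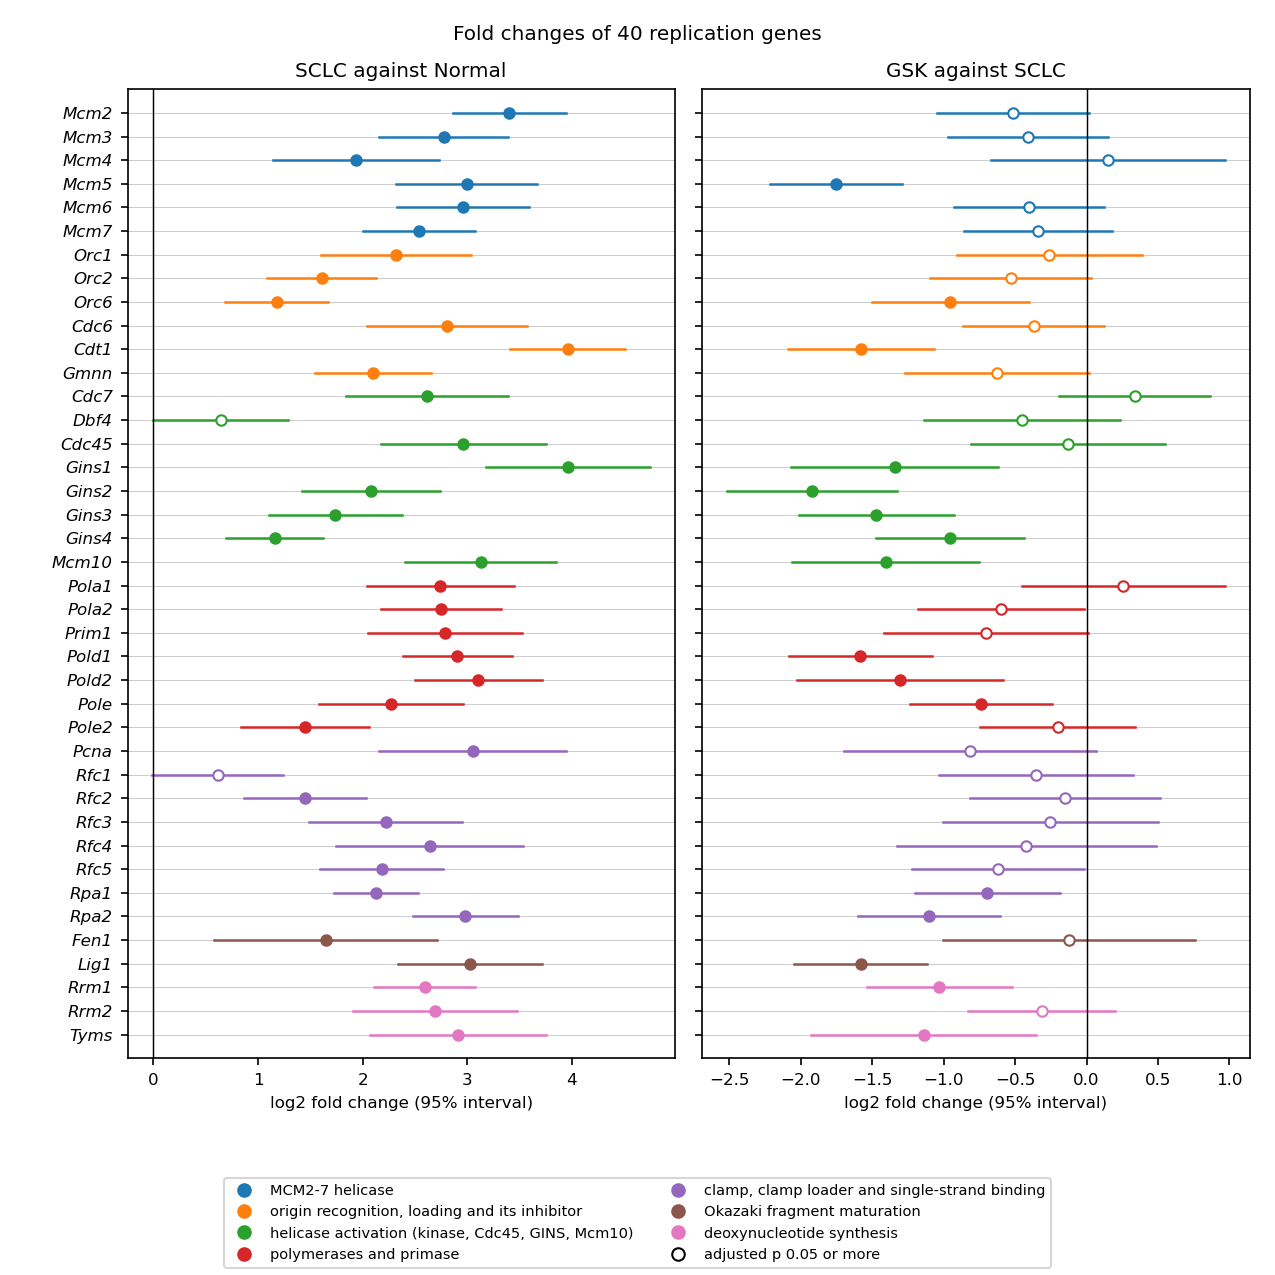
log2 fold change (x axis) of each replication gene with its 95% interval, by role (colour), in SCLC against Normal (left) and GSK against SCLC (right); filled points have an adjusted p under 0.05. On the left 38 of 40 points are filled and all lie above 0; on the right 16 are filled, all below 0, and 24 are open.

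A sequence feature that the choice by name did not use was more frequent in the promoters of these genes than in all promoters, though most lacked it. RefSeq promoters (mouse build GRCm38.p6, from 250 bases before to 50 after each start) were given for 33 of the 40. An E2F motif, searched as TTTCCCGC, TTTCGCGC, TTTGCCGC or TTTGGCGC on either strand, occurred in 13 of the 33 (39.4%, exact 95% interval 22.9 to 57.9), in 22 of 102 genes of the related lists used further on (21.6%) and in 704 of all 27025 genes (2.60%). The CCAAT box on either strand was found in 63.6% against 41.1% of all genes, and the CHR element TTTGAA on either strand in 21.2% against 20.2%. The 13 genes were Cdc6, Cdt1, Gins3, Lig1, Mcm3, Mcm5, Mcm6, Mcm7, Orc1, Pola1, Pold1, Pole2 and Rfc3. Genes with the motif had a median log2 fold change of 2.77 in SCLC against Normal and those without it 2.67. In GSK against SCLC the medians were -0.40 with the motif, where 5 of 13 fell, and -0.61 without it, where 7 of 20 fell. A match is a description of the letters in this window, not a shown binding site. Printed next are exon-free stretches of 4 of these promoters, chosen to show a loading factor, a pair of helicase subunits and a polymerase; capitals mark the motif, read 5′ to 3′ along the strand of the gene, where a match on the opposite strand appears as its reverse complement. They lie at chr11:98907982-98908070 (plus strand, Cdc6), chr8:75109306-75109417 (plus strand, Mcm5), chr1:128359706-128359865 (minus strand, Mcm6) and chrX:93632236-93632343 (minus strand, Pola1), all upstream of the annotated start.
Cdc6: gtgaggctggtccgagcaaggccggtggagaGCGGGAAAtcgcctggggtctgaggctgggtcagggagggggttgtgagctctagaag
Mcm5: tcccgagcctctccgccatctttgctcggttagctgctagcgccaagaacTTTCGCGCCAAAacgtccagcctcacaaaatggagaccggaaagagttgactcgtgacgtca
Mcm6: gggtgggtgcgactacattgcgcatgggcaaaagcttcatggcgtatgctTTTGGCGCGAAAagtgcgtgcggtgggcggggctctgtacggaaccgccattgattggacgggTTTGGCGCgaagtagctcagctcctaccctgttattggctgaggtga
Pola1: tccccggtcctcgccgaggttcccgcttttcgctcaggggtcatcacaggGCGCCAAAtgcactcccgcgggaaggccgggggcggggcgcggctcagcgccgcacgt
Mcm5 held 2 overlapping matches on opposite strands, and Mcm6 held 3, of which 2 overlapped in the same way. Mcm5 fell with GSK while Pola1 and Cdc6 did not pass, so genes with this motif were found on both sides of the threshold.

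The ring helicase had the highest median of the 7 roles in SCLC: all 6 subunit genes rose, with a median log2 fold change of 2.87 and a summed level of 10254 in Normal and 74831 in SCLC. Mcm2, a subunit at the gate through which DNA enters the ring, went from 1870.5 to 19793 (3.40 ± 0.28, adjusted p = 1.74e-33 from the authors' deposited table). Mcm4, a subunit of the catalytic core, showed the smallest rise, from 1237 to 4736 (1.94 ± 0.40, adjusted p = 6.38e-06 from the authors' deposited table). The other 4, Mcm3, Mcm5, Mcm6 and Mcm7, had log2 fold changes between 2.54 and 2.99. With GSK, 1 of the 6 fell (16.7%, where 27.5% of all genes with a mean of at least 50 were called lower). Mcm5, Mcm2's partner at the gate, fell from 13014 to 3863 (-1.75 ± 0.24, adjusted p = 2.6e-12 from the authors' deposited table), a 3.37-fold decrease. The other 5 did not pass: Mcm2 stood at -0.51 ± 0.27 (adjusted p = 0.128), Mcm3 at -0.41, Mcm6 at -0.40, Mcm7 at -0.34 and Mcm4 at 0.15 ± 0.42 (adjusted p = 0.818, 95% interval -0.67 to 0.97) from the authors' deposited table, and with equal totals Mcm3, Mcm6 and Mcm7 were above 0. The 95% interval of Mcm5, -2.22 to -1.29, did not overlap that of any other subunit, the nearest being Mcm2 with -1.05 to 0.02; the difference between genes was not tested.

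These subunits form a ring with 1 copy of each, and their mRNA levels per kilobase of transcript were not equal. In Normal the highest subunit was 2.03 times the lowest, in SCLC 4.45 times and in GSK 3.89 times. By level per kilobase, SCLC ran from Mcm2 (5872) and Mcm6 (5281) through Mcm7 (4060), Mcm3 (3578) and Mcm5 (3568) to Mcm4 (1320). In GSK the order ended with Mcm4 (1590) above Mcm5 (1142), and Mcm5 moved from rank 9 to rank 20 among the 40 genes. With coding length in place of transcript length the ratios were 2.01, 3.98 and 3.15. No spread over libraries was among the data analysed, so neighbours in such orders were not tested.

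**Figure D3:**
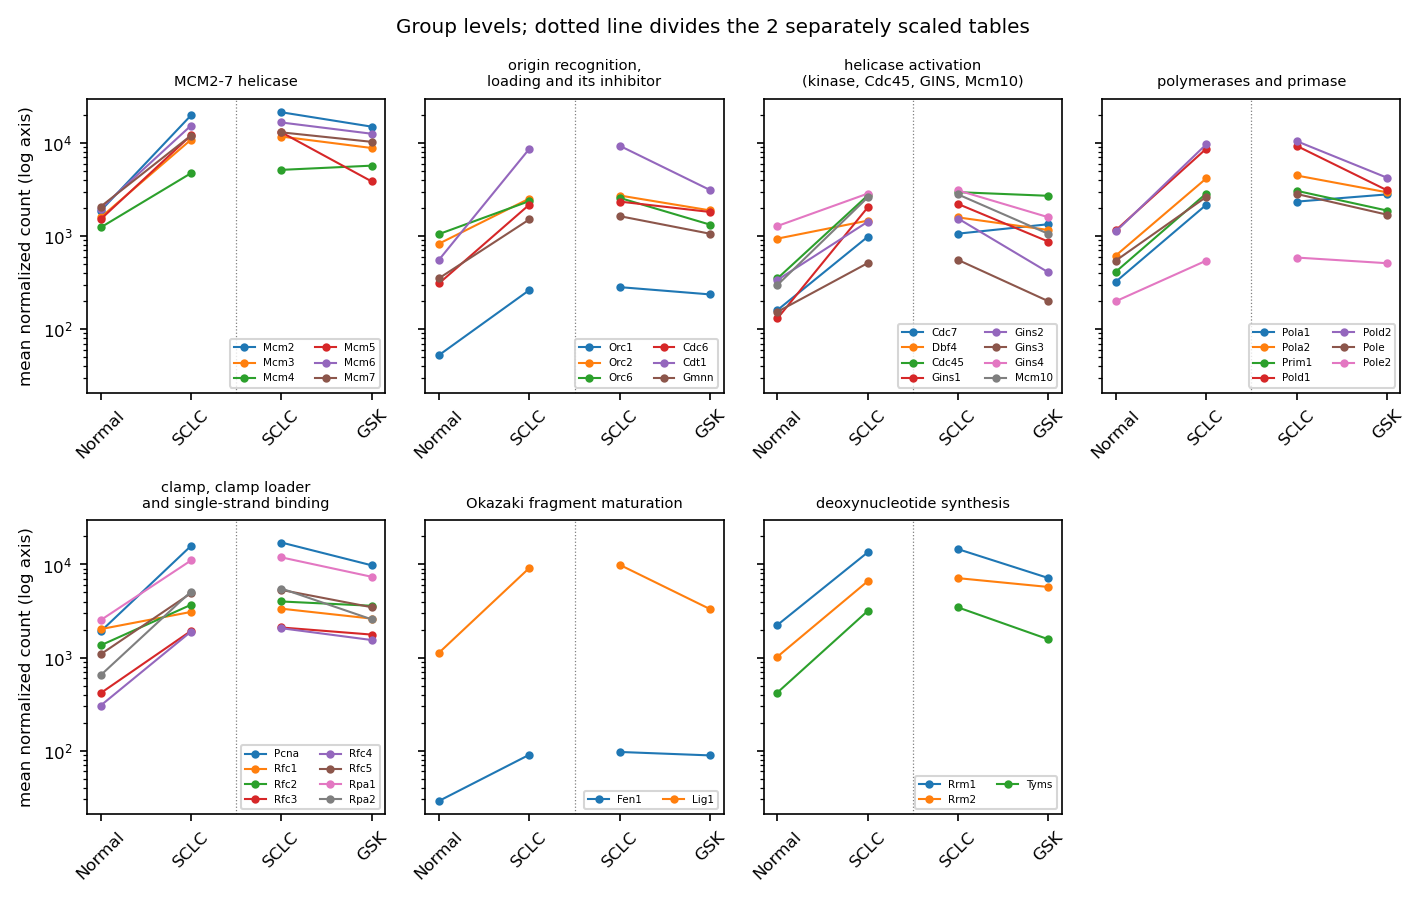
Implied mean normalized count (log axis) of each replication gene by role, in Normal and SCLC (left pair) and in SCLC and GSK (right pair); lines join the groups of 1 table, and points have no error because only group means could be derived. Mcm5 drops from 13014 to 3863 and crosses Mcm4, which stands at 5141 and 5706.

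Origin recognition and loading factors all rose in SCLC, 6 of 6, with a median log2 fold change of 2.21. Cdt1, which brings the helicase to the origin, rose most, from 557 to 8665, a 15.6-fold increase (3.96 ± 0.28, adjusted p = 1.83e-43 from the authors' deposited table). Its partner Cdc6, an ATPase of the loading step, rose from 311 to 2179 (2.81 ± 0.39), and the Cdt1 inhibitor geminin (Gmnn) from 353 to 1511 (2.10 ± 0.28, adjusted p = 1.39e-12 from the authors' deposited table). Of the origin recognition subunits, Orc1, whose protein is cell cycle regulated, rose from 52.7 to 263 (2.32 ± 0.37), Orc2 by 1.61 ± 0.26 and Orc6 from 1051 to 2376 (1.18 ± 0.25, adjusted p = 1.05e-05 from the authors' deposited table), the smallest rise of this role.

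With GSK, 2 of these 6 fell (33.3%, where 27.5% of all genes with a mean of at least 50 were called lower). Cdt1 went from 9320.1 to 3121 (-1.58 ± 0.26, adjusted p = 1.91e-08 from the authors' deposited table), and Orc6 from 2569 to 1326 (-0.95 ± 0.28, adjusted p = 0.00285), a call that was lost with equal totals. Its inhibitor Gmnn, at -0.63 ± 0.33 (adjusted p = 0.122), and Orc2, at -0.53 ± 0.29 (adjusted p = 0.137 from the authors' deposited table), did not pass. Cdc6 stood at -0.37 ± 0.25 and Orc1 at -0.26 ± 0.33 from the authors' deposited table, and both were above 0 with equal totals. Per kilobase of transcript, the level of Cdt1 was 0.814 times that of Gmnn in Normal, 2.93 times in SCLC and 1.52 times in GSK, with no error because these come from group means.

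Of the 8 genes that convert the loaded ring into an active helicase, 7 rose in SCLC. Gins1, a subunit of the GINS complex that bridges the helicase and polymerase epsilon, had the largest increase of all 40, from 131 to 2036 (3.96 ± 0.40, adjusted p = 7.72e-22 from the authors' deposited table). Mcm10, an essential firing factor that is not part of the ring, rose from 298 to 2607 (3.13 ± 0.37), and Cdc45, the GINS partner in the active helicase, from 351 to 2736 (2.96 ± 0.40 from the authors' deposited table). Cdc7, the kinase that phosphorylates the ring, rose from 160 to 984 (2.62 ± 0.40), whereas its activating subunit Dbf4 stood at 939 in Normal and 1465 in SCLC and did not pass (0.64 ± 0.33, adjusted p = 0.0942 from the authors' deposited table). Among GINS genes the rise was uneven: Gins2 had 2.08, Gins3 1.74 and Gins4 1.16 ± 0.24 (adjusted p = 4e-06 from the authors' deposited table).

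By number of genes this role had the most calls with GSK, 5 of 8, and its median was -1.15. By share, its 62.5% was below the 66.7% of deoxynucleotide synthesis, a role of 3 genes. Among all genes with a mean of at least 50, 27.5% were called lower. All 4 GINS genes fell. Gins2, whose exons overlap Gse1 on the opposite strand, had the largest decrease of the 40, from 1542 to 407 (-1.92 ± 0.30, adjusted p = 3.41e-09 from the authors' deposited table). Gins3 fell from 554 to 199 (-1.47 ± 0.28, adjusted p = 1.03e-06), Gins1 from 2210.1 to 871 (-1.34 ± 0.37, adjusted p = 0.00134) and Gins4 from 3092 to 1592 (-0.96 ± 0.26, adjusted p = 0.00141 from the authors' deposited table), and with equal totals the calls of Gins1 and Gins4 were lost. Mcm10 fell from 2796 to 1055 (-1.41 ± 0.34, adjusted p = 0.000167 from the authors' deposited table). Cdc45, which joins GINS on the helicase, was at 2962 and 2707 (-0.13 ± 0.35, adjusted p = 0.81, 95% interval -0.81 to 0.55 from the authors' deposited table), which turned to 0.38 with equal totals and 0.12 when centred on abundant genes. Cdc7 was at 1062 and 1341 (0.34 ± 0.27, adjusted p = 0.347), and it passed with equal totals at 0.84. Dbf4 did not pass (-0.45 ± 0.35, adjusted p = 0.329 from the authors' deposited table), and it was above 0 with equal totals.

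Polymerase and primase genes rose in SCLC in 7 of 7 cases, with a median of 2.75. The largest rise was that of Pold2, the accessory subunit of polymerase delta, from 1121 to 9652 (3.11 ± 0.31, adjusted p = 3.29e-22 from the authors' deposited table), followed by its catalytic subunit Pold1, from 1155 to 8658 (2.91 ± 0.27). Polymerase alpha and primase genes lay close together, with Pola1 at 2.74 ± 0.36, Pola2 at 2.75 ± 0.29 and Prim1 at 2.79 ± 0.37 from the authors' deposited table. Polymerase epsilon genes rose least, the catalytic Pole by 2.27 ± 0.35 and its partner Pole2 from 199.6 to 544 (1.45 ± 0.31, adjusted p = 1.29e-05 from the authors' deposited table).

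With GSK, both polymerase delta genes fell. Pold1 went from 9325 to 3110.5 (-1.58 ± 0.26, adjusted p = 8.69e-09) and Pold2 from 10475 to 4241 (-1.30 ± 0.37, adjusted p = 0.00174 from the authors' deposited table), the latter call being lost with equal totals. Pole fell from 2835 to 1699 (-0.74 ± 0.25, adjusted p = 0.0118 from the authors' deposited table), a call that did not survive either rescaling. Pola1, the catalytic subunit of polymerase alpha, was one of 3 genes above 0, at 2343 and 2801 (0.26 ± 0.36, adjusted p = 0.624, 95% interval -0.45 to 0.97 from the authors' deposited table). Its partners Pola2, at -0.60 ± 0.30 (adjusted p = 0.0998), and Prim1, at -0.70 ± 0.36 (adjusted p = 0.117), and the epsilon subunit Pole2, at -0.20 ± 0.28, did not pass from the authors' deposited table, and Pole2 was above 0 under both rescalings.

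Of the clamp, clamp loader and single-strand binding genes, 7 of 8 rose in SCLC. Pcna, the sliding clamp, went from 1909 to 15825 (3.05 ± 0.46, adjusted p = 1.46e-10 from the authors' deposited table) and had the highest level per kilobase of the 40 in all 3 groups, 10425 in SCLC. The single-strand binding genes Rpa1 and Rpa2 rose by 2.13 ± 0.21 (adjusted p = 7.21e-24) and 2.98 ± 0.26 (adjusted p = 1.2e-29 from the authors' deposited table). Clamp loader genes spread more widely: Rfc4 had 2.64, Rfc3 2.22, Rfc5 2.18 and Rfc2 1.45 from the authors' deposited table. Rfc1, the large subunit specific to the loader used in replication, stood at 2020.2 and 3092 and did not pass (0.61 ± 0.32, adjusted p = 0.0969 from the authors' deposited table), the smallest value of the 40.

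With GSK only the 2 single-strand binding genes of this role passed (25.0%, where 27.5% of all genes with a mean of at least 50 were called lower). Rpa2 fell from 5519 to 2573 (-1.10 ± 0.25, adjusted p = 9.79e-05) and Rpa1 from 11919 to 7372 (-0.69 ± 0.26, adjusted p = 0.0233 from the authors' deposited table). Both calls were lost with equal totals. Pcna was at 17209.9 and 9792, a difference of -0.81 whose SE of 0.45 left it short of the threshold (adjusted p = 0.149 from the authors' deposited table). None of the 5 clamp loader genes passed, with values from -0.62 (Rfc5, adjusted p = 0.103) to -0.15 (Rfc2, adjusted p = 0.769) from the authors' deposited table; with equal totals Rfc1, Rfc2, Rfc3 and Rfc4 were above 0, as was Rfc2 when centred on abundant genes.

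Both genes of Okazaki fragment maturation rose in SCLC. Lig1, the replicative DNA ligase, went from 1128 to 9183 (3.03 ± 0.35, adjusted p = 7.77e-17 from the authors' deposited table). Fen1, the flap nuclease, whose exons overlap an opposite-strand gene, went from 28.9 to 90.6 (1.65 ± 0.54, adjusted p = 0.00609 from the authors' deposited table) and had the lowest level and the largest SE of the 40. Lig1 fell with GSK from 9909 to 3314 (-1.58 ± 0.24, adjusted p = 5.05e-10), while Fen1 was at 96.9 and 89.0 (-0.12 ± 0.45, adjusted p = 0.866 from the authors' deposited table), turning above 0 when the groups were rescaled.

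All 3 deoxynucleotide synthesis genes rose in SCLC. Rrm1, the large subunit of ribonucleotide reductase, went from 2240.2 to 13520 (2.59 ± 0.25, adjusted p = 1.68e-24), and Rrm2, its small subunit, from 1022 to 6614 (2.69 ± 0.40, adjusted p = 1.13e-10 from the authors' deposited table). Tyms, which makes thymidylate, went from 421 to 3174 (2.91 ± 0.43, adjusted p = 7.47e-11 from the authors' deposited table). Rrm1 fell with GSK from 14596 to 7144 (-1.03 ± 0.26, adjusted p = 0.000395) and Tyms from 3456 to 1569.6 (-1.14 ± 0.40, adjusted p = 0.0151 from the authors' deposited table), and neither call was kept with equal totals. Rrm2 was at 7126 and 5730.0 and did not pass (-0.31 ± 0.26, adjusted p = 0.372 from the authors' deposited table), and it was above 0 with equal totals.

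Across the separately scaled tables, the 2 fold changes of each gene can be added to set GSK against Normal, with no test. The sum was above 0 for all 40 genes, with a median of 1.79 and a range of 0.15 to 3.0. It was under 0.3 for 6 genes, Gins2, Dbf4, Gins4, Orc6, Rfc1 and Gins3, so 3 of the 4 GINS genes were among these. At the other end stood Pola1 (3.0), Cdc7 (2.95), Mcm2 (2.89) and Cdc45 (2.83).

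The other genes of the pathway were read from 12 lists of 127 genes, of which 126 had an entry. In SCLC against Normal 90 rose, 13 fell and 23 did not pass, with a median log2 fold change of 1.74. Of all genes tested in that comparison, 25.3% were called higher and 25.1% lower. In GSK against SCLC 9 rose, 56 fell and 61 did not pass, with a median of -0.62. There 21.6% of all genes tested were called higher and 15.5% lower. With equal totals the counts were 23 higher and 30 lower, against 30.8% and 6.94% of all genes tested. Among genes with a mean of at least 50, 36.3% were called higher in SCLC and 27.5% lower with GSK. The list of Orc3, Orc4, Orc5, Mcmbp, Mcm8, Mcm9, Lrwd1 and Kat7 had the lowest median of the 12 lists in SCLC, 0.62. Of these 8 genes, 4 were higher in SCLC (Mcmbp, Mcm8, Lrwd1 and Kat7) and none was called with GSK. The origin recognition genes Orc3, Orc4 and Orc5 did not pass in SCLC, at -0.14, -0.31 and -0.16 from the authors' deposited table, where Orc1, Orc2 and Orc6 rose, and Mcm8, a relative of the ring subunits, rose by 2.65. Origin firing and fork protection genes rose in 9 of 10 cases and fell with GSK in 2, Ticrr, a factor needed for origins to fire (3.61 ± 0.47, then -2.06 ± 0.36), and Timeless, of the fork protection complex (2.50 ± 0.38, then -1.03 ± 0.33 from the authors' deposited table). Further polymerase and clamp genes rose in 13 of 17 cases and fell with GSK in 7, among them Rnaseh2a, the catalytic subunit of RNase H2 that removes RNA from DNA (2.26 ± 0.27, then -2.24 ± 0.28). Pold4, the small delta subunit, was the 1 gene of that list that fell in SCLC, by 1.44 on the log2 scale from the authors' deposited table.

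For the counts in the next lists, 25.3% of all genes tested were called higher and 25.1% lower in SCLC, and 21.6% and 15.5% with GSK. Deoxynucleotide supply genes rose in 11 of 15 cases and fell in 2, and with GSK 9 fell and 1 rose. Dut, which removes dUTP, had 4.02 and -1.19, and Tk1, the thymidine salvage kinase, 2.55 and -1.89, whereas Samhd1, which degrades deoxynucleotides, had -1.57 and 1.14 from the authors' deposited table. Rrm2b, the reductase subunit known from resting cells, fell in SCLC (-0.74 ± 0.23, adjusted p = 0.00316 from the authors' deposited table), opposite to Rrm2. Of the licensing turnover genes 6 of 9 rose and 6 of 9 fell with GSK, with Fbxo31 at -2.51 ± 0.27 and Dtl, of the ligase that destroys Cdt1, at -0.12 ± 0.27 from the authors' deposited table. Checkpoint genes rose in 7 of 9 cases, and with GSK 1 fell (Wee1, -1.04) and 1 rose, Atr, the apical replication stress kinase (1.05 ± 0.33, adjusted p = 0.00538 from the authors' deposited table). Chromatin assembly genes rose in 9 of 10 cases and fell with GSK in 6, with the histone chaperone Asf1b at 3.21 and -1.98 from the authors' deposited table.

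Upstream regulators were mixed. Beside the counts below, 25.3% of all genes tested were called higher and 25.1% lower in SCLC. With GSK the shares were 21.6% higher and 15.5% lower. Of 10 G1/S cyclin and kinase genes 5 rose and 4 fell in SCLC: Ccne1 had 2.78, but Ccnd2 had -7.04, Ccnd1 -5.13 and Cdk6 -4.76 from the authors' deposited table. With GSK 4 fell (Ccne1 -1.65, Cdk4 -1.64, Ccna2 -1.13 and Cdc25a -0.91) and 2 rose (Ccnd2 5.74 and Cdk6 5.0), likewise from the authors' deposited table. E2F and pocket protein genes rose in 7 of 13 cases and fell in 3 (23.1%, near the share of all genes). With GSK 6 fell and 1 rose: E2f1 had 2.7 and -1.45, and Rb1 had -2.02 ± 0.24 and 2.54 ± 0.35 from the authors' deposited table. CDK inhibitor genes rose in 4 of 7 cases and fell in 2, and with GSK 5 fell and 1 rose. Cdkn1a had -1.60 and 2.15, and Cdkn2a 4.86 and -1.61 from the authors' deposited table. Larger falls were those of Cdkn2b in SCLC (-4.87, then -0.85) and of Cdkn1c with GSK (-3.28, after -0.58 in SCLC, which did not pass), likewise from the authors' deposited table. Repair polymerase genes rose in 5 of 8 cases and fell in 1, with Polk at -2.63 and then 1.58 with GSK from the authors' deposited table. With GSK 2 of these genes rose and 2 fell, 25.0% each. That is near the 21.6% of all genes called higher, and the 27.5% called lower among those with a mean of at least 50. Mitotic genes rose in 10 of 10 cases, with a median of 3.91, above that of the 40 replication genes. With GSK 8 of 10 mitotic genes fell, with a median of -1.46, Ube2c lowest at -2.21, but the proliferation marker Mki67 rose (0.91 ± 0.26, adjusted p = 0.0016 from the authors' deposited table). Stromal and immune marker sums moved in the same libraries as Ccnd2, Cdk6 and Rb1, and their part in these values was not tested.

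**Figure D4:**
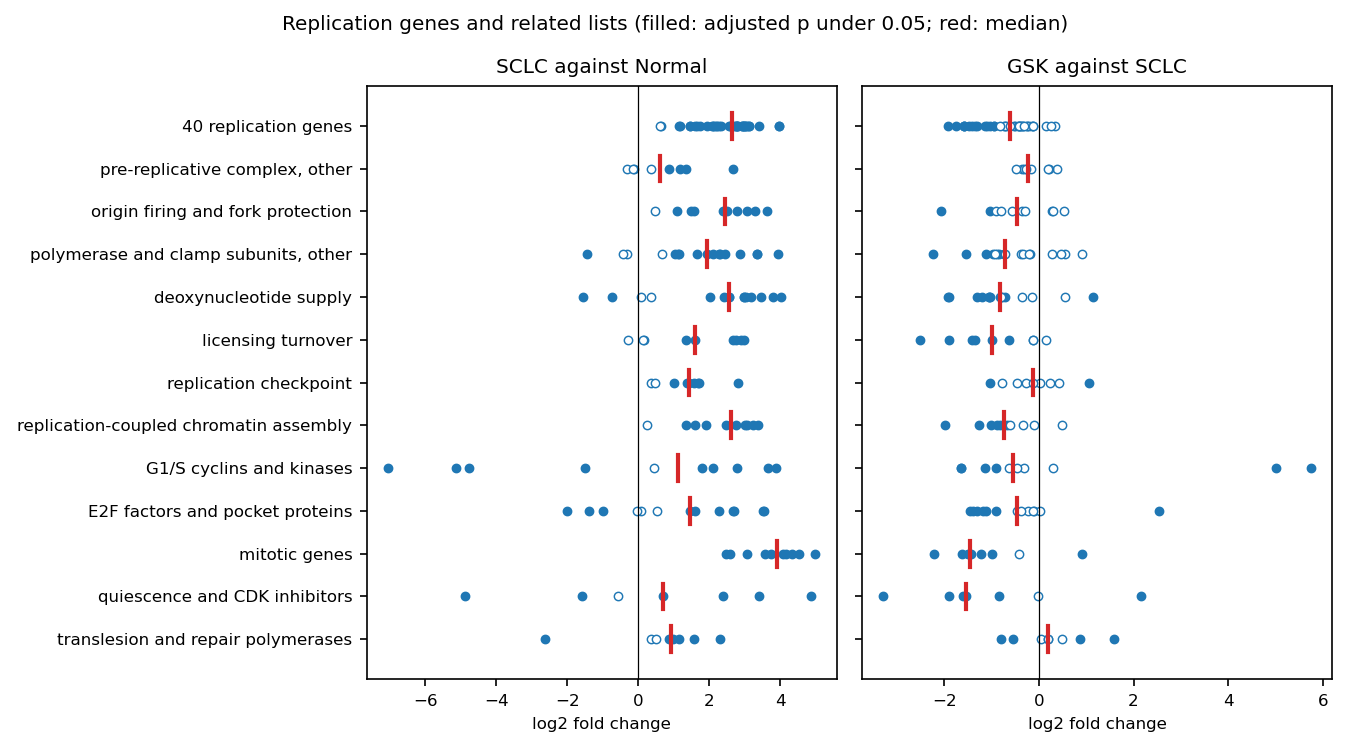
log2 fold change (x axis) of the 40 replication genes and of 12 related lists (rows), 1 point per gene, filled at an adjusted p under 0.05, with the median as a red bar, in SCLC against Normal (left) and GSK against SCLC (right). The replication genes have medians of 2.63 and -0.61 and ranges of 0.61 to 3.96 and -1.92 to 0.34, and the G1/S list runs from -7.04 to 3.87 and from -1.65 to 5.74.

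The 5 neuroendocrine markers had a median log2 fold change with GSK of -1.33, but they ran from -1.95 to 1.15, with 3 lower and 1 higher. Set beside that median, 8 of the 40 replication genes were lower (Gins2, Mcm5, Lig1, Cdt1, Pold1, Gins3, Mcm10 and Gins1). The part of a changed share of neuroendocrine cells in the 16 decreases was not tested.

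GC content of the transcript also moved with the response to GSK. Across 13407 genes with a mean of at least 100, the log2 fold change fell with GC, as a description with Spearman's rho of -0.29 and Pearson's r of -0.16 across genes, which are not independent replicates. Among the 40 replication genes rho was -0.36 and r was -0.47. The 16 genes that fell had a median GC of 50.7% (44.4 to 60.7) and the 24 that did not pass 47.6% (41.5 to 55.5). Pold1, Cdt1 and Pold2, at 60.7%, 58.8% and 58.8%, fell with estimates below -1, while Pola1, at 41.5%, was above 0. However, Mcm2, at 55.5%, did not pass and Rrm1, at 44.4%, fell. With the GC trend removed alone, an alternative chosen after seeing the data, 17 genes were lower and none higher, against 13.2% of all genes called lower; with length and GC trends removed 14 were lower, against 10.7%. Pold2 lost its call under both settings and Gins4 and Rpa1 with length and GC removed, while Orc2 gained one under both and Prim1 with GC alone. In SCLC against Normal the relation across 12801 genes was positive, with rho of 0.13 and r of 0.11. With the GC trend removed alone, 39 genes were higher there, as Dbf4 gained a call.

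**Figure D5:**
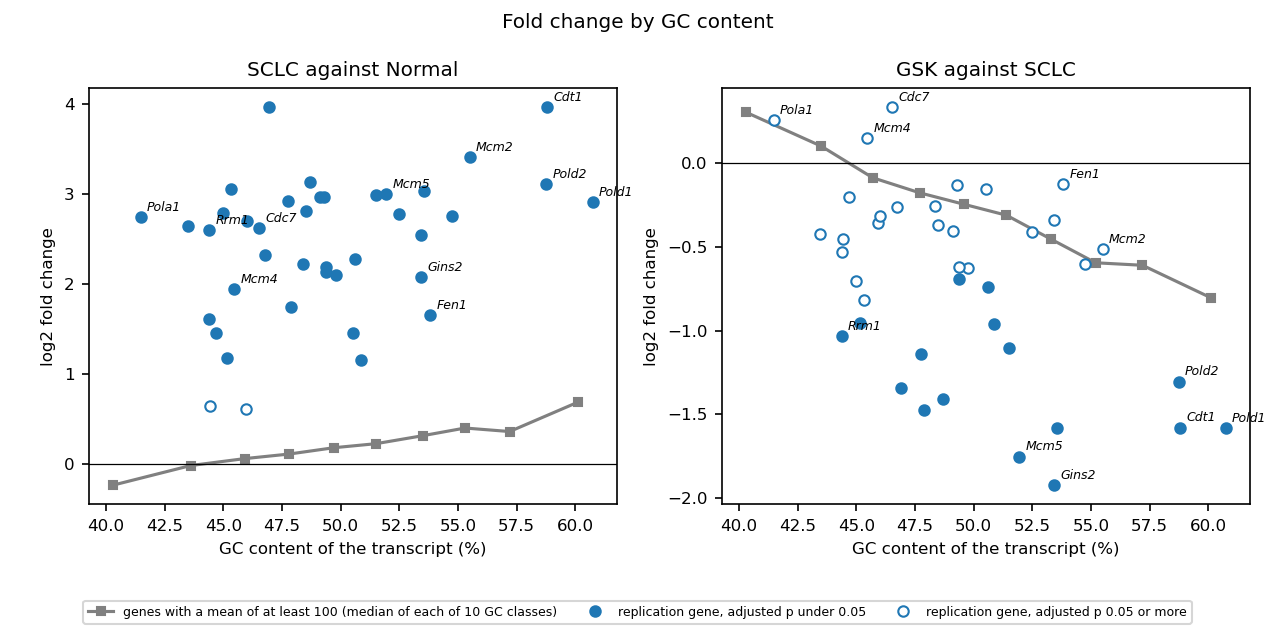
log2 fold change (y axis) of the 40 replication genes (circles, filled at an adjusted p under 0.05) against GC content of the transcript in percent (x axis), with the median of abundant genes in each of 10 classes of GC (grey squares), in SCLC against Normal (left) and GSK against SCLC (right). The grey medians fall from 0.30 to -0.80 with GC on the right, and the genes that fell lie below the grey line.

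Some counts cannot be assigned to a single gene with certainty. The kit marks strand per the labels, but whether the counting used strand is not given in the sources used here. Exons of Fen1 are overlapped over 78.8% of their bases by the opposite-strand gene Gm10143 (mean 15.8 and 38.0 in the 2 tables), those of Gins2 over 67.3% by Gse1 (mean 6035 and 7708) and those of Orc2 over 29.8% by Nif3l1, in the GENCODE annotation of GRCm38. In the 2 comparisons Gse1 had 1.68 and -0.83 beside the 2.08 and -1.92 of Gins2, from the authors' deposited table. Nif3l1 had 1.94 and -0.99 beside the 1.61 and -0.53 of Orc2, and Gm10143 had 2.90 and 0.63 beside the 1.65 and -0.12 of Fen1, from the authors' deposited table. Near-identical copies exist too: Pcna-ps2 matches Pcna at 99.2% over 781 bases and moved by 2.85 and -0.77, close to the 3.05 and -0.81 of Pcna from the authors' deposited table. Gm5487 matches Mcm7 at 97.7% over 2157 bases, with a mean of 28.9 against 7047 for Mcm7. Opposite-strand genes also cover 15.1% of the exon bases of Rfc2, 12.65% of Rfc4, 10.8% of Orc1 and 10.7% of Rfc5. Rfc5 has a copy too, Gm12870, at 96.2% over 1020 bases. The values of Fen1, Gins2, Orc2, Pcna, Rfc2, Rfc4, Orc1 and Rfc5 are therefore uncertain to that extent.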

How the data were processed

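Stranded mRNA libraries were sequenced as paired reads per the labels' protocols, and the submitters' processing notes name STAR 2.7.9a and GRCm39. These notes leave the counting tool, annotation and testing tool unnamed; per the file headers, the authors' columns have the names of a DESeq2 results table. The deposited signal column holds the authors' mean normalized count over 6 libraries. The authors' log2 fold change and its SE, their score (fold change divided by SE) and their p-value and adjusted p-value were used as deposited, with a threshold of 0.05, because no values per library could be tested; edgeR had been planned for that case only and was not run. Recomputed statistics and Benjamini-Hochberg values matched the deposited ones to within 3.68e-07.

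The 40 genes, their roles and all lists were chosen with earlier results of these data known. Named genes were those with the largest and smallest change of each role, those that did not pass or went against the rest, and up to 3 per related list with the largest change; 1 marker is not reported here, and others named in counts of 5 or fewer were chosen after their values were seen. Group levels were implied from each mean and its fold change, taking 3 libraries in a group; a group mean of 1 (3 counts over the group) was the floor, and no fold was given under it. Levels and totals were given without error, and the exact interval on the promoter motif share rests on the number of genes alone. The depth of single libraries was not analysed here. Length, GC and exon overlaps came from the transcript with the longest coding sequence in GENCODE M21 (GRCm38), copies from blastn 2.17.0 (at least 95% identity over 300 bases), and promoters from RefSeq. Fold changes were recomputed under 8 alternatives with pandas 2.3.3, scipy 1.17.1 and statsmodels 0.14.6 (lowess over 30% of genes). In a check on data with known answers, 200 genes were given a log2 change of 3. Of these, 90.0% were recovered for SCLC against Normal and 94.0% for GSK against SCLC. The shares counted as false were 6.74% and 6.47%. The removal of length and GC trends was not tested in this way.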

Additional observations from a re-analysis of the deposited data

How the results depend on the processing

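Only group summaries were analysed, so leaving out replicates, edgeR and DESeq2 fits were not run. No paired analysis was possible because no column carried the value of a single library. In SCLC against Normal, 30 of the 40 genes kept direction and side of the threshold under all 8 alternatives, and 38 did so without the test against an absolute log2 fold change of 1, under which 30 genes were called higher, 6340 genes in all passed and 6 related genes were lower. Dbf4 and Rfc1 passed once length and GC trends were removed. In GSK against SCLC, 7 genes kept both direction and side of the threshold under all 8 and 12 without the fold threshold; counting the call alone, 23 and 28 did. Under that threshold 2 replication genes passed, both lower, with 3724 genes in all, of which 563 (1.98% of those tested) were lower, and 3 related genes were higher and 8 lower. With equal totals 8 replication genes passed, 7 lower and 1 higher, and 23 related genes were higher and 30 lower. Of all genes tested, 30.8% were then called higher and 6.94% lower. Of all calls 58.2% were higher as deposited, 81.6% with equal totals, 70.2% when centred on abundant genes, 84.9% with the fold threshold, 69.0% with length and GC trends removed and 44.1% among genes with a mean of at least 50. Centring ended the calls of Pole, Rpa1 and Tyms (13 lower), as did an adjusted p under 0.01; removing length and GC trends ended those of Gins4, Pold2 and Rpa1. The signs that turned belonged to genes that did not pass before or after. With equal totals these were Mcm3 (0.10), Mcm6 (0.10), Mcm7 (0.17), Orc1 (0.25), Cdc6 (0.14), Dbf4 (0.057), Cdc45 (0.38), Pole2 (0.30), Rfc1 (0.15), Rfc2 (0.35), Rfc3 (0.25), Rfc4 (0.085), Fen1 (0.38) and Rrm2 (0.19). Centring turned Cdc45 (0.12), Pole2 (0.044), Rfc2 (0.093) and Fen1 (0.12). Length and GC removal turned Mcm4 (-0.0045), Cdc45 (0.024), Pola1 (-0.27), Rfc3 (0.060) and Fen1 (0.27), and GC removal alone Pola1 (-0.15) and Fen1 (0.19). Beyond the added scaling or trend itself, the cause was not tested. SEs of the replication genes ran from 0.205 to 0.544, and the smallest change that passed with GSK was the -0.69 of Rpa1.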
